A study of Homo sapiens with 4 samples.

Results

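Olfactory receptor promoters were examined as a family in 4 chromatin immunoprecipitation sequencing (ChIP-seq) libraries. The members were the promoters whose gene symbol is that of an olfactory receptor, that is OR, a family number, subfamily letters and a gene number, with or without a final P for a pseudogene. This rule found 382 of the 20242 promoters in the files, and no measured value entered it. The members belong to 17 families and 176 subfamilies. Of these, 55 are class I receptors (families OR51, OR52 and OR56), 327 are class II receptors, and 3 have symbols ending in P.

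The cells were JMJD3c-hESCs, a line of the human embryonic stem cell (hESC) line SEES-3. They carry a piggyBac transgene from which doxycycline (Dox), through a Tet-On promoter, switches on JMJD3c, an HA-tagged C-terminal part of JMJD3 (KDM6B) that holds its catalytic domain. JMJD3 removes methyl groups from lysine 27 of histone H3. Both groups carry the transgene. The −Dox group received no Dox and the +Dox group received 1 µg/ml, and cells were collected on day 3. Trimethylated lysine 27 (H3K27me3), left by Polycomb proteins at repressed genes, and trimethylated lysine 4 (H3K4me3), found at active or poised promoters, were each measured in both groups. Each group and mark had 1 library. No difference below therefore has a replicate check, and no p-value is given. Intervals of ratios and of their differences are 95% intervals from the approximate number of reads, so that they compare libraries and not conditions. They cover counting error only. Intervals of medians are 95% intervals from the ranked values of the members, and they reflect spread between promoters and not replicates. Cells were measured in bulk, so that a mark in fewer cells and less of it in each cell cannot be told apart.

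Olfactory receptors are odorant-sensing G protein-coupled receptors, and their genes form the largest gene family of the human genome. A mature olfactory sensory neuron expresses a single receptor gene out of the whole repertoire, from 1 of its alleles, while the others stay in compact chromatin that in these neurons carries lysine 9 methylation. The genes lie in tandem clusters and have an uninterrupted coding sequence. Class I receptors resemble those of fish and sit together in a cluster on the short arm of chromosome 11, and class II receptors are spread over many chromosomes. Outside the nose most of these genes are silent.

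Promoter sequences are shown first because the family differs from other genes in them. RefSeq promoters (250 bases before to 50 after a start, build GRCh38.p14) matched 301 of the 382 members by symbol, with 313 entries. In these 300 bases the members held a median of 1 CpG dinucleotide, against 14 over all 35093 RefSeq entries, and the median GC content was 37.7% against 58.7%. Of the member entries 66 (21.1%) held no CpG, against 3.96% of all, and 19 (6.07%) held at least 5, against 70.3% of all. The 4 promoters below belong to the members with the highest signals or with wide differences between libraries. Capitals mark each CpG. OR4D1 (chr17:58148134-58148433, + strand) had the highest signal of both marks in −Dox, OR2L13 (chr1:247936927-247937226, + strand) the second highest H3K4me3, OR10AD1 (chr12:48203243-48203542, − strand) the lowest +Dox/−Dox ratio of H3K27me3 among the members with a mean of at least 10, and OR4L1 (chr14:20059795-20060094, + strand) the highest.
OR4D1: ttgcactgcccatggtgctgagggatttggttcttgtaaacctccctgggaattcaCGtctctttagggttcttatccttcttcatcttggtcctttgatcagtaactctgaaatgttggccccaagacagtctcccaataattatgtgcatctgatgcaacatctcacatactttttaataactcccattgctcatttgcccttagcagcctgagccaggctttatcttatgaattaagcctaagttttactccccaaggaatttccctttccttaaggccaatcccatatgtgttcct
OR2L13: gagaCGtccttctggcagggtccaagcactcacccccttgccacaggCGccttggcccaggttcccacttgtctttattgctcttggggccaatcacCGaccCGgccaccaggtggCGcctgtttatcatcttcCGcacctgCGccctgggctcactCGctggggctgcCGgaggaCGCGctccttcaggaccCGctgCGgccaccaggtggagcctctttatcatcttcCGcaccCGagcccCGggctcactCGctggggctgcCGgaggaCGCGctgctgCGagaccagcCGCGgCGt
OR10AD1: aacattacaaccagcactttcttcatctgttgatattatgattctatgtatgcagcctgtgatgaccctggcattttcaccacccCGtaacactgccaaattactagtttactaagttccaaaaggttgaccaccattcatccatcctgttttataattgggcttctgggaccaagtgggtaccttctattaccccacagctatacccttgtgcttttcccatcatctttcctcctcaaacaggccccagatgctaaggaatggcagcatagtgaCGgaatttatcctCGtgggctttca
OR4L1: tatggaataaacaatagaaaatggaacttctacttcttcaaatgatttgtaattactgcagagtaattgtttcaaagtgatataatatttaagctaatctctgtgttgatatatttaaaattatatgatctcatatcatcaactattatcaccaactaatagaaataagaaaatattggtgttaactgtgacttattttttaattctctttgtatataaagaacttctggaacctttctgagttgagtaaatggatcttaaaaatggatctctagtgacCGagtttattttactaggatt

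The OR4D1 and OR4L1 promoters each held 1 CpG, that of OR10AD1 held 3, and the OR2L13 promoter held 24 with a GC content of 67.3%. RefSeq lists a second start for OR2L13, whose 300 bases held 1 CpG. The highest number among the members was 39, at OR3A2. Members with a CpG-rich RefSeq promoter had no higher H3K4me3 medians in their windows. The 18 members with at least 5 CpGs had an H3K4me3 median of 3.13 in −Dox and 4.47 in +Dox, against 3.42 and 4.47 for the 283 members with fewer. OR3A2 itself had H3K4me3 values of 1.71 in −Dox and 3.73 in +Dox. RefSeq promoters were matched to windows by symbol only, and whether a RefSeq start lies in the window was not checked. The values need not be those of the CpG-rich sequence, so that no conclusion on such promoters is drawn.

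Short motifs were counted on both strands of the same promoters. TAATTA, a core bound by homeodomain factors such as LHX2, stood in 69 of the 313 member entries (22.0%) and in 4.84% of all RefSeq entries. TCCCNNGGG, the core of the site of the Olf1/EBF factors, stood in 13 (4.15%) and in 8.85% of all. TATAAA stood in 106 (33.9%) and in 11.5% of all. The first and the last of these motifs contain no G or C, and the members are poor in both bases. A match is a description of letters and not a bound site.

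The coding starts of near-identical copies are shown because they bear on what the libraries can measure. The first 120 coding bases (start codon in capitals, GRCh37) were the same, with 0 mismatches, in OR4F29 (chr1:367659-367778, + strand), OR4F3 (chr5:180794288-180794407, + strand) and OR4F16 (chr1:621915-622034, − strand). They were also the same in OR2A1 (chr7:144015218-144015337, + strand) and OR2A42 (chr7:143929817-143929936, − strand).
OR4F29: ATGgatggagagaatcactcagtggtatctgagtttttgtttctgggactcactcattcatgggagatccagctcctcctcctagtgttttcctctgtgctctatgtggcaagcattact
OR2A1: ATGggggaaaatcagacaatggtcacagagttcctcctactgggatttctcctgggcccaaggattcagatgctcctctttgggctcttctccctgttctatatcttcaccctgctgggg

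All 5 of these promoters were listed at 0 in all 4 libraries, as were 2 further members. In the windows of these 7 members at least 70.8% of the 150-base stretches, the length of a read, occurred more than once in the genome. Over all promoters 373 were at 0 in every library, and 329 of the 363 of them that could be placed had more than 10% of their window in such repeated stretches. For these members a value of 0 is therefore no measure of the mark.

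The signal is coverage within 3 kb of the transcription start, scaled to the reads of the library. The deposited values were whole multiples of a step. If the values are per 1000000 reads, the step implies a depth of 2629350.7 reads for H3K27me3 −Dox, 3509244.4 for H3K4me3 −Dox and 2682085 for both +Dox libraries. The +Dox files thus carry exactly the same scale although they hold different measurements (the Spearman correlation over promoters was 0.148 between them and 0.955 between both H3K4me3 libraries), and the −Dox depths were not whole numbers. Whether each file was scaled to its own library was not determined here, so that every level in +Dox and every +Dox/−Dox ratio below holds for the scale as deposited. Differences between sets of promoters within a mark do not depend on it, and the calls that another scaling changes are named beside them. The other scalings set the median ratio of low promoters (defined below) to 1, which multiplies +Dox values by 1.08 for H3K27me3 and 0.934 for H3K4me3, or set the total over all promoters to that of −Dox, which multiplies them by 1.18 and 1.03. The study's threshold of 20 corresponds to between 15.9 and 21.0 reads in the window. Embryonic stem cell markers stood as the label says: all 6 (SOX2, LIN28A, DPPA4, TDGF1, DNMT3B and ZFP42) were above 20 for H3K4me3 in both libraries and none was above 20 for H3K27me3. Of 6 genes that mark olfactory neurons, none was above 20 for H3K27me3 in either group. ADCY3, CNGA4 and GNAL were above 20 for H3K4me3 in both groups, and OMP, CNGA2 and STOML3 were below 6 for both marks in both groups. The CNGA4 window also takes in the start of another gene with H3K4me3, FAM160A2, so that its signal cannot be assigned to CNGA4. No input library was used here, so that background is part of every value.

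The family as a whole carried little of either mark in these windows. The median H3K27me3 signal of the members was 5.70 (95% interval over members, 5.32 to 6.47) in −Dox and 6.34 (5.97 to 6.71) in +Dox. The median H3K4me3 signal was 3.42 (3.13 to 3.70) and 4.10 (3.73 to 4.85). A median member thus rested on about 4.55, 5.09, 3.60 and 3.29 reads in the H3K27me3 −Dox, H3K27me3 +Dox, H3K4me3 −Dox and H3K4me3 +Dox libraries. Over all promoters the medians were 6.09, 5.97, 41.3 and 38.8 in the same order. The family thus stood near the middle of all promoters for H3K27me3 and far below it for H3K4me3.

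A closer background was taken from the 6743 promoters outside the family whose mean over both groups was at most 20 for both marks, referred to as low promoters. Their mean H3K27me3 signal was 5.81 ± 4.26 (SD over promoters) in −Dox and 5.44 ± 3.73 in +Dox, against 6.44 ± 4.58 and 7.14 ± 4.85 for the 382 members. Their mean H3K4me3 signal was 5.60 ± 4.56 and 5.97 ± 4.48, against 3.72 ± 2.58 and 4.53 ± 2.95 for the members. The means of the members were therefore slightly above this background for H3K27me3 and below it for H3K4me3, in both groups. The sets were not chosen alike, since the limit of 20 was not applied to the members. Low promoters were also more often at 0, with 604 of 6743 for H3K27me3 −Dox against 10 of 382 members. How much of the small H3K27me3 difference this makes up was not tested. The 6 kb windows of the members were poorer in GC, with a median of 37.9% against 46.0% for low promoters, and held a median of 39 CpGs against 82. Among windows with a GC content from 35% to 38% the mean H3K4me3 signals were closer, at 3.58 in −Dox and 4.46 in +Dox for the members against 4.23 and 5.09 for low promoters.

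**Figure D1:**
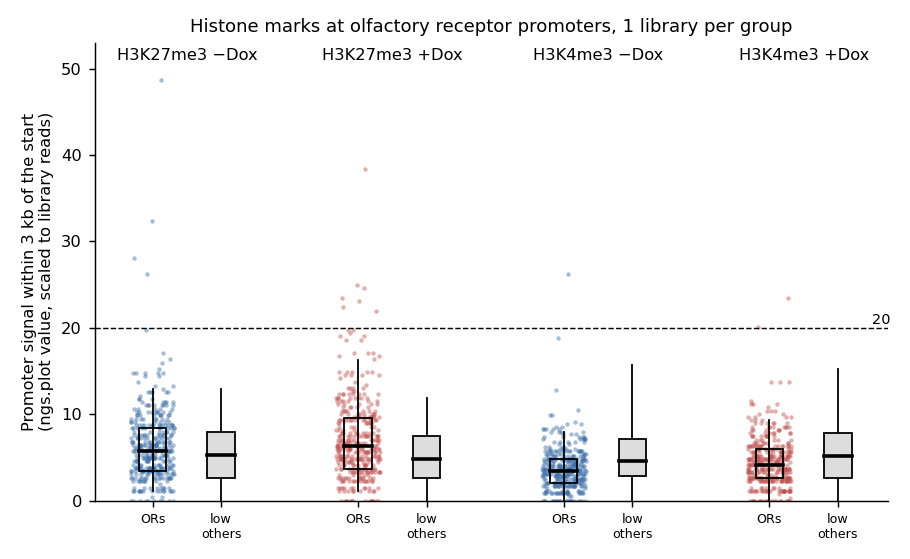
Promoter signal (vertical axis, ngs.plot value) of each of the 382 olfactory receptor promoters in the 4 libraries (points), with boxes from the 25th to the 75th percentile, a thick line at the median and whiskers from the 5th to the 95th percentile. Grey boxes show the 6743 low promoters outside the family, without points. The dashed line is the threshold of 20, and 4, 7, 1 and 2 members lie above it from left to right.

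Few members passed the threshold of 20. For H3K27me3 4 of 382 did in −Dox (1.05%, against 11.0% of all promoters) and 7 did in +Dox (1.83%, against 6.73%). For H3K4me3 1 did in −Dox (0.262%, against 63.7%) and 2 did in +Dox (0.524%, against 62.7%). In all, 11 members were above 20 in at least 1 library. For both marks the family had a smaller share of marked promoters than the files as a whole, in both groups.

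OR4D1, a class II receptor gene on chromosome 17, was the only member above 20 for both marks, and it was so in both groups. Its H3K27me3 signal was 48.7 in −Dox and 25.0 in +Dox, and the ratio was 0.513 (0.281 to 0.894). Its H3K4me3 signal was 26.2 in −Dox and 23.5 in +Dox, a ratio of 0.896 (0.469 to 1.65). As deposited, the H3K27me3 interval thus lay below 1 and the H3K4me3 interval included 1. With equal totals the H3K27me3 interval of OR4D1 included 1 too. OR4D1 was picked as the highest member in −Dox, and the H3K27me3 interval does not allow for that choice. The window (GRCh37, chr17:56222745-56228745) lies around a start 6770 bases from the coding start, so that the coding start lies outside the window. Its neighbour OR4D2, which shares none of the window, had H3K27me3 values of 6.85 and 5.97. The nearest promoter outside the family with an H3K27me3 mean above 20, that of DHX40, was over 1 Mb away.

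The other 3 members above 20 for H3K27me3 in −Dox were at or below 11.9 in +Dox. These members, and OR4X1 below, were picked by their high −Dox values, so that lower +Dox values follow in part from the choice. Their intervals do not allow for it. OR10AD1 on chromosome 12 went from 32.3 in −Dox to 4.85 in +Dox, a ratio of 0.150 (0.0387 to 0.440). It is the only member whose window overlaps that of a gene outside the family, DKFZP779L1853, which starts 4905 bases away. OR1J4 on chromosome 9 had 28.1 and 9.69, a ratio of 0.344 (0.139 to 0.841). Its neighbour OR1J2 had 26.2 and 11.9, and the interval of its ratio reached just past 1 (0.455, 0.199 to 1.05). OR4X1, the fifth highest in −Dox, had 19.8 and 10.8, with an interval that also included 1 (0.217 to 1.34).

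The members above 20 for H3K27me3 in +Dox were, apart from OR4D1, below 12 in −Dox, and all were class II receptors of family OR4. They were picked by their high +Dox values, so that lower −Dox values follow in part from the choice. The intervals below do not allow for it. OR4N4 on chromosome 15 had the largest value, 8.37 in −Dox and 38.4 in +Dox, a ratio of 4.59 (1.90 to 11.8). OR4L1 on chromosome 14 had 3.42 and 22.4, a ratio of 6.54 (1.74 to 31.6). OR4K2 on the same chromosome had 8.37 and 23.5 (2.81, 1.08 to 7.58). OR4C3 on chromosome 11 had 6.09 and 23.1 (3.80, 1.36 to 12.9). For the remaining 2, OR4C5 (11.0 and 24.6) and OR4A16 (9.51 and 22.0), the intervals included 1 as deposited and lay above 1 under both other scalings. None of the 6 was above 12 for H3K4me3 in either group.

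**Figure D2:**
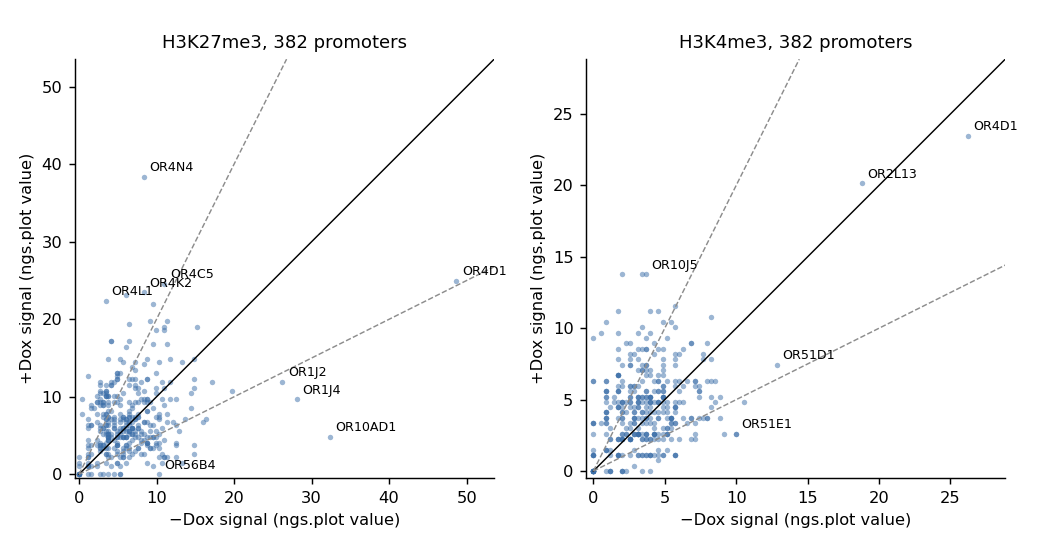
Signal in −Dox (horizontal axis) against +Dox (vertical axis) for the 382 members, for H3K27me3 (left) and H3K4me3 (right), both as ngs.plot values on linear axes of different length. The solid line marks equal values and the dashed lines ratios of 0.5 and 2. OR4N4, at 38.4 in +Dox, lies far above the upper dashed line and OR10AD1, at 4.85, below the lower one, while OR4D1 and OR2L13 stand apart from all others for H3K4me3.

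H3K4me3 was highest at OR4D1 and OR2L13. OR2L13 had 18.8 in −Dox and 20.1 in +Dox (ratio 1.07, 0.508 to 2.13), with H3K27me3 values of 3.04 and 5.97. Its deposited transcript was not found in the annotation, so which of the RefSeq starts the window surrounds was not determined here. OR51D1, a class I receptor gene, had 12.8 and 7.46 (0.582, 0.188 to 1.71). No other member had an H3K4me3 mean of 10 or more. OR10J5 and OR10P1 both reached 13.8 in +Dox, from 3.70 and 3.42 in −Dox, and these were among the 10 members whose interval lay above 1. With low promoters at a median ratio of 1 the interval of both, and of OR52A1, included 1.

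In the values as deposited H3K27me3 summed over all promoters was lower in +Dox, whereas it was slightly higher there over the olfactory receptor promoters. The log2 ratio of +Dox to −Dox for the signal summed over the members was 0.15 (0.06 to 0.24), while it was −0.23 (−0.24 to −0.23) over all promoters and −0.09 (−0.12 to −0.07) over low promoters. The value of the members exceeded that of low promoters by 0.24 (0.15 to 0.33) on the log2 scale, a difference that does not depend on how the libraries are scaled. Restricted to windows with a GC content under 41% in both sets, it was 0.30 (0.19 to 0.41). Against other tandem multigene families the interval included 0: the difference was 0.16 (−0.22 to 0.54) for the 24 bitter taste receptors (TAS2R) and 0.14 (−0.08 to 0.35) for the 93 keratin-associated proteins (KRTAP). Without the chromosome 1 cluster described below the summed log2 ratio of the other 339 members was 0.07 (−0.02 to 0.16), and its excess over low promoters was 0.16 (0.07 to 0.26).

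Member by member, H3K27me3 as deposited was higher in +Dox at 208 and lower at 167. Over all promoters it was higher at 8773 and lower at 11024, and over low promoters at 2908 and 3405. The member counts were 226 and 149 with low promoters at a median ratio of 1, and 238 and 137 with equal totals. The median log2 ratio over the 372 members with a −Dox value above 0 was 0.14 (−0.03 to 0.28), beside −0.15 over all promoters. The ratio was below 0.5 at 61 members (16.4%, against 21.5% of all promoters) and above 2 at 84 (22.6%, against 14.7%). At about 5 reads a member such ratios carry a wide counting error, and fewer members had intervals that excluded 1. These lay below 1 at 10 of 375 members (2.67%, against 7.05% of all promoters) and above 1 at 12 (3.20%, against 1.75%). With low promoters at a median ratio of 1 the counts were 7 below and 17 above, and with equal totals they were 5 and 23. The same scalings put 55 and 47 members below a ratio of 0.5 and 98 and 110 above 2. They shift the ratios of all promoters too. The shares of all promoters above hold as deposited only, so that the rescaled counts have no background beside them.

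The 10 members with H3K27me3 intervals below 1 were, besides OR4D1, OR10AD1 and OR1J4, the receptors OR1J1, OR7A17, OR7A5, OR5B17, OR2D2, OR10A2 and OR56B4. OR1J1, next to OR1J4, went from 14.8 to 2.61, and OR5B17 from 13.3 to 1.49. OR56B4, a class I receptor, had 10.3 in −Dox and was listed at 0 in +Dox, for which the upper limit of the ratio was 0.581. The intervals of OR2D2, OR7A5 and OR10A2 included 1 under both other scalings, and those of OR4D1 and OR7A17 did so with equal totals. The 12 members with intervals above 1 were OR4N4, OR4L1, OR4K2, OR4C3, OR4C13, OR4C15, OR4A47, OR2L3, OR14C36, OR5C1, OR5A1 and OR51H1P, 7 of them in family OR4. OR4C15 had 6.47 and 19.4, and OR4C13 and OR4A47 both had 4.18 and 17.2. OR5A1, a receptor for the violet odorant beta-ionone, had 0.380 in −Dox, less than 1 read, and 9.69 in +Dox.

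For H3K4me3 the members were also higher in +Dox, and so were GC-poor promoters outside the family. The summed log2 ratio of the members was 0.29 (0.18 to 0.39), compared with −0.04 over all promoters and 0.09 (0.07 to 0.11) over low promoters. The excess over low promoters was 0.19 (0.09 to 0.30). Restricted to windows under 41% GC, it was 0.12 (−0.01 to 0.25), so the interval then included 0. Low promoters with a window GC content from 35% to 38% had a log2 ratio of 0.27 (0.19 to 0.35), and the 124 members in the same range had 0.32 (0.13 to 0.51). For H3K27me3 the low promoters of that range had −0.10 (−0.18 to −0.02) and the same members 0.22 (0.06 to 0.37). As deposited, the 2 marks thus differed in whether GC-poor promoters outside the family shared the direction of the members. Both other scalings raise H3K27me3 in +Dox, so that the direction of these low promoters for H3K27me3 depends on the scale.

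Counts of single members for H3K4me3 followed the same direction. The ratio was below 0.5 at 47 of 358 members (13.1%, against 5.33% of all promoters) and above 2 at 88 (24.6%, against 6.09%). The shares rest on different depths, since the median promoter of the files had about 43.5 reads in −Dox and 31.1 in +Dox, against 3.60 and 3.29 for the members. Intervals lay below 1 at 0 of 370 members (against 3.09%) and above 1 at 10 (2.70%, against 1.88%). OR4C15 was the only member with an interval above 1 for both marks, with H3K4me3 values of 1.99 in −Dox and 13.8 in +Dox.

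The family did not move as one block along the genome. Of the 382 members 381 were placed on GRCh37, on 18 chromosomes, 165 of them on chromosome 11, and they formed 39 clusters when members more than 1 Mb apart were separated. The 17 clusters with at least 7 members held 343 members. For H3K27me3 the interval of the summed log2 ratio lay above 0 in 5 of the 17, below 0 in 2, and included 0 in 10. For H3K4me3 it lay above 0 in 5 and below 0 in none. With low promoters at a median ratio of 1 these counts were 6 and 1 for H3K27me3 and 4 and 0 for H3K4me3, and with equal totals they were 7 and 0 and 5 and 0. No background share stands beside these counts. For H3K27me3 the 19 low promoters outside the family near the OR7C1 cluster had 0.71 (0.33 to 1.08). The 7 near the OR6X1 cluster had −0.88 (−1.59 to −0.20). Intervals of local sets that exclude 0, on either side, were thus not particular to the receptors. Of the smaller clusters 4 of 2 members each had wider H3K27me3 differences than any of the 17 with intervals that excluded 0. These were the pairs of OR4C13 (1.92, 0.59 to 3.51) and OR4N4 (1.64, 0.71 to 2.59) and those of OR10AD1 (−2.24, −3.71 to −1.10) and OR4D1 (−0.84, −1.60 to −0.09).

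Among the 17 clusters the widest H3K27me3 difference belonged to the largest of chromosome 1, whose 43 members run from OR2B11 to OR14I1 (chr1:247615284-248845629). Their mean went from 4.54 in −Dox to 8.07 in +Dox, a log2 ratio of 0.83 (0.55 to 1.13), and 35 members were higher in +Dox and 8 lower. The values ranged from 0 to 11.8 (median 3.80) in −Dox and from 0 to 17.2 (median 8.58) in +Dox, so that the groups overlapped. The difference from all other placed members was 0.76 (0.46 to 1.06). Within the cluster the longest run of consecutive members higher in +Dox held 12, from OR2AJ1 to OR2T33, with means of 4.94 and 11.5. It holds the OR2L and OR2M subfamilies. The longest run of lower members held 1. Runs were picked by the sign of the change, so that their shared direction is no separate result. H3K4me3 of the 43 members had a log2 ratio of 0.23 (−0.13 to 0.58). Without the 10 members of the cluster that have near copies the H3K27me3 value was 0.76 (0.47 to 1.08). The 4 low promoters outside the family within 1 Mb had −0.11 (−1.01 to 0.85).

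Clusters on both sides of the centromere of chromosome 11 were also higher in +Dox. The 7 members from OR4B1 to OR4A47 (chr11:48238362-48510345) had means of 9.07 and 15.4, a log2 ratio of 0.77 (0.24 to 1.29). The 44 members from OR4A16 to OR5AK2 (chr11:55110677-56756389) had means of 5.59 and 7.60, a log2 ratio of 0.44 (0.17 to 0.72). There the longest run of members higher in +Dox was the first 14, from OR4A16 to OR5D16, with means of 6.74 and 12.0. The longest run of lower members held 5, from OR5T3 to OR8K1, with means of 4.64 and 2.61. Both runs were picked by the sign of the change. Family OR4 members of the 4 clusters from OR4B1 to OR5AK2 were higher in +Dox at 17 of 19, with a log2 ratio of 0.94 (0.58 to 1.29). The 6 low promoters outside the family near the OR4B1 cluster had 1.20 (0.42 to 2.13), so that promoters beside the receptors differed in the same direction there, and the 9 near the OR4A16 cluster had −0.08 (−0.71 to 0.55).

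The other 2 clusters with intervals above 0 were smaller in effect or number. The 8 members on chromosome 19 from OR2Z1 to OR7E24 (chr19:8841391-9361606) had a log2 ratio of 0.69 (0.15 to 1.21), and 7 of 8 were higher in +Dox. The 22 members on chromosome 14 from OR11H12 to OR6J1 (chr14:19377594-23113561) had 0.33 (0.01 to 0.65), and this interval included 0 without OR4Q3 (−0.01 to 0.65) or without near copies (−0.003 to 0.63). The 30 low promoters outside the family near the chromosome 14 cluster had −0.43 (−0.78 to −0.07).

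Lower H3K27me3 in +Dox was found for the chromosome 9 cluster from OR1J1 to OR1K1 (chr9:125240205-125562402). Its 14 members had the highest −Dox mean of the 17 clusters, 12.4, and 8.02 in +Dox, a log2 ratio of −0.62 (−1.03 to −0.23), and 10 of 14 were lower. With equal totals the interval just reached 0 (−0.39, −0.79 to 0.00). The difference from all other placed members was −0.82 (−1.21 to −0.42). The first 3 members, OR1J1, OR1J2 and OR1J4, had a mean of 23.1 in −Dox and 8.08 in +Dox. They were picked as the longest run of members lower in +Dox. The longest run of higher members held 2, from OR1L6 to OR5C1, with means of 5.13 and 11.2. Without OR1J2 the cluster had −0.55 (−0.97 to −0.12). H3K4me3 of the same members was higher in +Dox, with a log2 ratio of 0.59 (0.04 to 1.13), which included 0 without OR1J2 (−0.02 to 1.11) and with low promoters at a median ratio of 1 (−0.06 to 1.04). All 4 low promoters outside the family near the cluster were lower for H3K27me3 in +Dox, with −0.82 (−1.74 to 0.13).

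**Figure D3:**
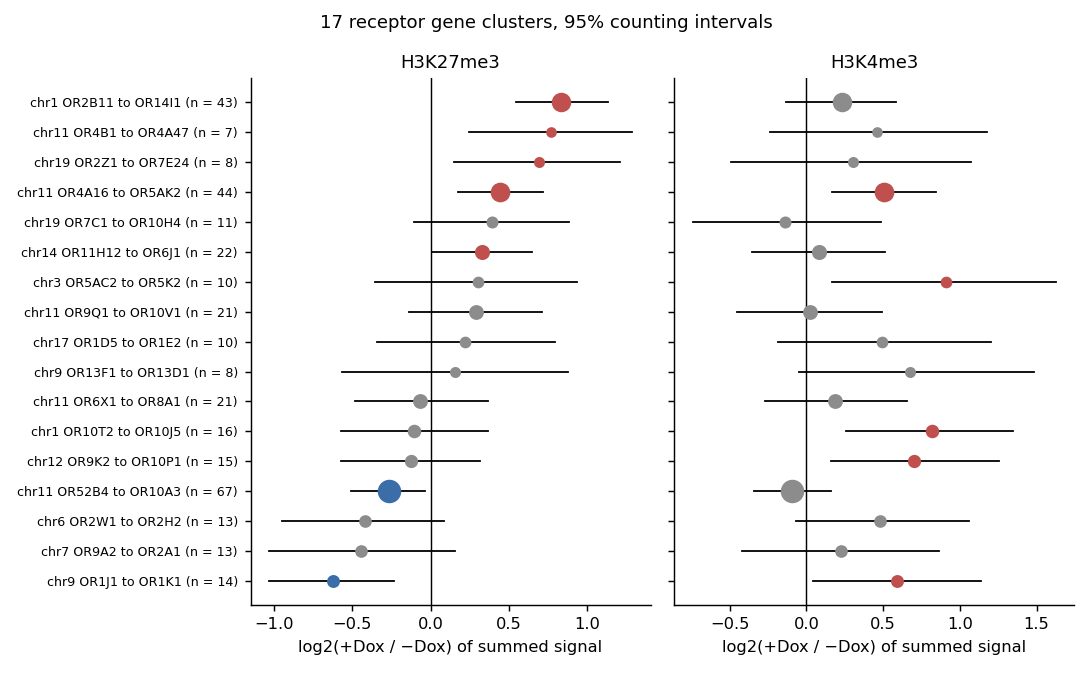
Log2 ratio of +Dox to −Dox, on the scale as deposited, for the signal summed over the members of each of the 17 clusters with at least 7 members (horizontal axis), H3K27me3 left and H3K4me3 right, with lines for the 95% counting interval. Point area grows with the number of members, red marks an interval above 0, blue one below 0 and grey one that includes 0. H3K27me3 runs from −0.62 at the chromosome 9 cluster of OR1J1 to 0.83 at the chromosome 1 cluster of OR2B11.

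**Figure D4:**
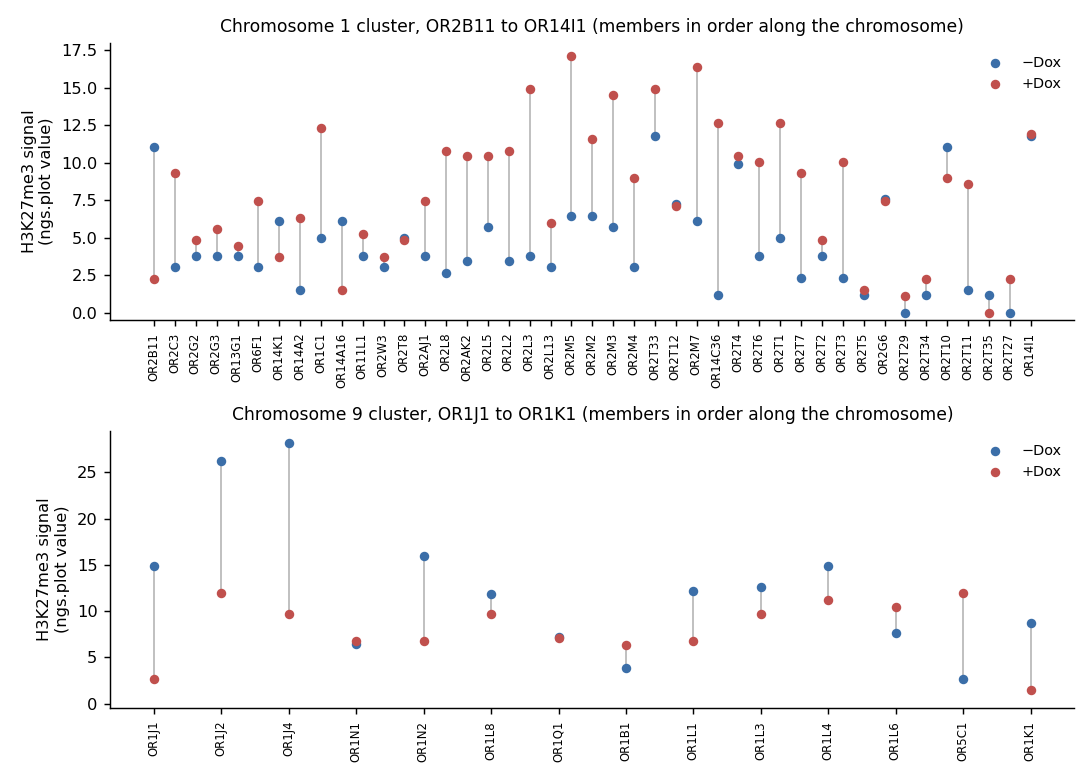
H3K27me3 signal (vertical axis, ngs.plot value) in −Dox (blue) and +Dox (red) for each member of the chromosome 1 cluster (top, 43 members) and the chromosome 9 cluster (bottom, 14 members), in their order along the chromosome. In the top panel the 12 members from OR2AJ1 to OR2T33 all have the red point above the blue one, and in the bottom panel OR1J1, OR1J2 and OR1J4 have it far below. These runs were picked by the sign of the change.

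Adjacent members were compared for both marks. Over the 336 pairs of adjacent members in a cluster whose windows do not overlap, the correlation of the log2 change (with 5 added to each value) was 0.19 for H3K27me3 and −0.01 for H3K4me3. The correlation of the mean level was 0.37 for H3K27me3 and 0.08 for H3K4me3. These are descriptions over pairs that share libraries and, in part, base composition, at few reads a member, and no finding is drawn from them.

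The 2 receptor classes differed for both marks. The 55 class I members had H3K27me3 means of 6.0 in −Dox and 4.82 in +Dox, a log2 ratio of −0.32 (−0.58 to −0.05), and 36 of 55 were lower. This interval included 0 with low promoters at a median ratio of 1 (−0.47 to 0.07) and with equal totals (−0.35 to 0.19). The 327 class II members had 6.51 and 7.53, a log2 ratio of 0.21 (0.11 to 0.30). The difference between the classes was −0.52 (−0.80 to −0.25). For H3K4me3 the class I value was −0.11 (−0.39 to 0.17), the class II value 0.36 (0.24 to 0.47), and their difference −0.47 (−0.76 to −0.17). All 55 class I members lie in 1 cluster of chromosome 11, from OR52B4 to OR10A3 (chr11:4389525-7961067), which as a whole had −0.27 (−0.50 to −0.03), the other cluster with an interval below 0. This interval too included 0 under both other scalings. The 27 low promoters outside the family near it had 0.28 (−0.09 to 0.65). The 12 class II members of that cluster had a log2 ratio of −0.08 (−0.62 to 0.42) for H3K27me3, so that class and place cannot be told apart. The class I value was furthest from 0 in family OR56, where all 6 members were lower in +Dox, with means of 9.0 and 3.29 (log2 ratio −1.45, −2.36 to −0.58). Families OR51 (−0.09, −0.49 to 0.33) and OR52 (−0.25, −0.66 to 0.15) had intervals that included 0.

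Family OR4 had the highest H3K27me3 log2 ratio among the families with at least 10 members. Its 50 members had H3K27me3 means of 7.20 and 10.9, a log2 ratio of 0.60 (0.38 to 0.82), which exceeded that of all other members by 0.54 (0.31 to 0.78). Outside the 4 chromosome 11 clusters the other 31 OR4 members had 0.36 (0.08 to 0.65). Low promoters outside the family near the OR4B1, OR4C13 and OR4N4 clusters were also higher in +Dox. Those near the OR4A16, OR4D1 and chromosome 14 clusters were not. For H3K4me3 OR4 did not differ from the other members beyond the interval (0.01, −0.29 to 0.31). Family OR5, with 47 members, had 0.31 (0.05 to 0.58) for H3K27me3, and OR2, with 68, had 0.26 (0.04 to 0.48). Family OR1, with 26 members, had −0.37 (−0.68 to −0.07), an interval that included 0 under both other scalings, and 13 of these lie in the chromosome 9 cluster described above.

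Of the 18 subfamilies with at least 5 members, 7 had an H3K27me3 interval above 0 and none had one below 0. No background share stands beside this count. OR2L (5 members) had means of 3.73 and 10.6, a log2 ratio of 1.51 (0.63 to 2.46). OR2M (5) had 5.55 and 13.7, a log2 ratio of 1.31 (0.57 to 2.09). OR4C (9) had 6.38 and 15.5, a log2 ratio of 1.28 (0.77 to 1.80). In each of these 3 subfamilies every member was higher in +Dox. The same held for OR8B (5 members, 1.14, 0.25 to 2.15) and OR10H (5 members, 0.99, 0.37 to 1.68). OR2T (16 members, 0.70, 0.19 to 1.22) and OR4K (7 members, 0.58, 0.01 to 1.13) were mixed. Families, subfamilies and clusters overlap in their members, and the ones named were picked after their values were seen.

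Members with much sequence that occurs elsewhere in the genome had the lowest values. Of the 381 placed windows 276 had no 150-base stretch that occurs elsewhere in the genome, and their mean signals were 6.87, 7.34, 4.08 and 4.85 (H3K27me3 −Dox and +Dox, H3K4me3 −Dox and +Dox). The 17 members with more than 50% of their window in such stretches had means of 0.828, 0.877, 0.352 and 0.241. Of those 17, 15 were at 0 in at least 1 library, against 12 of the 276. The 27 members with more than 10% shared sequence made up 7.09% of those placed, against 4.23% of all promoters outside the family and 11.3% of low promoters. Without them the summed log2 ratio was 0.13 (0.04 to 0.22) for H3K27me3 and 0.29 (0.18 to 0.40) for H3K4me3.

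**Figure D5:**
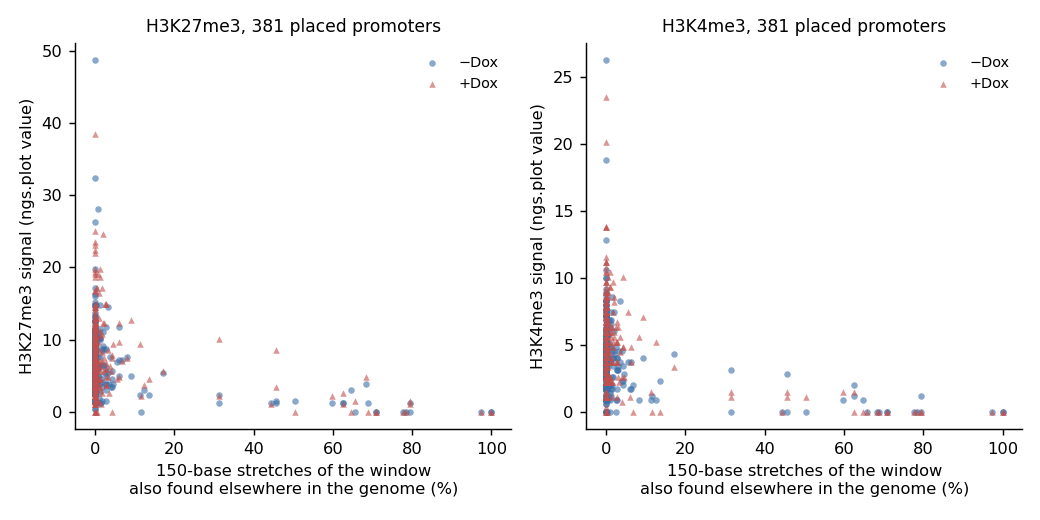
Signal (vertical axes, ngs.plot value) against the share of 150-base stretches of the window that occur elsewhere in the genome (horizontal axes, %) for the 381 placed members, H3K27me3 left and H3K4me3 right, with −Dox as blue circles and +Dox as red triangles. Beyond 50% the H3K27me3 values stay below 5 and many points lie at 0.

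Receptors with well known ligands or roles were taken from a list of 13. Of these 12 had a row in the files, and none was above 20 for either mark in either group. Their median H3K27me3 signal was 4.37 in −Dox and 8.39 in +Dox, and their median H3K4me3 signal 3.28 and 3.54. OR51E2, a receptor for short-chain fatty acids that is also expressed in prostate, had H3K27me3 values of 3.04 and 3.73 and H3K4me3 values of 3.42 and 5.22. OR7D4, the androstenone receptor, had H3K27me3 values of 8.75 and 8.20, and for H3K4me3 it was listed at 0 in −Dox and had 1.12 in +Dox. OR1D2, the bourgeonal receptor, had 13.7 and 7.08 for H3K27me3, with an interval of the ratio (0.517) from 0.164 to 1.60. OR51E1, a receptor for fatty acids, had H3K4me3 values of 9.97 and 2.61, a ratio of 0.262 (0.0279 to 1.23). Of the 12, OR5A1 alone had an interval that excluded 1, for H3K27me3.

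The genes of olfactory signalling and receptor choice are not members and were read beside the receptors. Of 24 listed genes 18 were above 20 for H3K4me3 in −Dox and 16 in +Dox, shares near those of all promoters (63.7% and 62.7%). CNGA4, whose window takes in the FAM160A2 start, is among them in both groups. For H3K27me3 8 were above 20 in −Dox and 7 in +Dox, against 11.0% and 6.73% of all promoters. In −Dox 8 were above 20 for both marks, and in +Dox 5. LHX2 and EMX2, homeodomain factors of the olfactory epithelium, had H3K27me3 values of 251 and 258, and of 174 and 185. EMX2 had H3K4me3 values of 40.5 and 15.7, a ratio of 0.387 (0.195 to 0.751). EBF1, an Olf1/EBF factor, went from 157 to 113 for H3K27me3, and the interval of the ratio (0.717) was 0.545 to 0.954. GNAL, the G protein subunit that couples the receptors to adenylyl cyclase, went from 18.6 to 6.34, with 0.340 (0.0940 to 0.957). The H3K27me3 interval lay below 1 at 4 of the 24 (ANO2, EBF1, GNAL and SLC24A4, against 7.05% of all promoters) and above 1 at 0 (against 1.75%). OMP, a marker of mature olfactory neurons, had H3K27me3 values of 3.42 and 5.97 and H3K4me3 values of 5.98 and 3.73.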

How the data were processed

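ChIP-seq with antibodies to H3K27me3 and H3K4me3 was done on −Dox and +Dox JMJD3c-hESCs, with 1 library per group and mark. Per the labels and the study's methods, the authors used CASAVA 1.4 and Bowtie2 (version not given in the sources used here) with hg19, removed mitochondrial reads, and deposited signal, namely ngs.plot coverage scaled to library reads within 3 kb of the start of 1 transcript per gene. The study's methods describe normalization of its profiles to the mean density over 6 kb after transcription ends, and whether the deposited values carry it is not stated. A shared loss over the whole genome would not appear in such values.

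In every file 100% of values were whole multiples of a step (tolerance 0.01 steps), which gave approximate reads at 3.30 to 3.34 steps a read. Ratios are +Dox/−Dox without pseudocount, with exact Clopper-Pearson intervals (95%) on approximate reads. Reads carried no molecular identifiers, so that they need not be independent molecules. Differences of log2 ratios carry normal intervals on the same reads. Starts were placed on GRCh37 with GENCODE 44, 253 by transcript and 128 by gene (OR5R1 was not placed). Placement by gene used an annotated start codon where there was one, since the deposited transcript was not in that annotation. The windows of these 128 may thus differ from the deposited ones, and so may their GC content, CpGs, shared sequence and overlaps. Python 3.11.15, numpy 2.4.6, pandas 2.3.3 and scipy 1.17.1 were used.

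Members named were the 5 highest per library, those with extreme ratios at a mean of at least 10, those with intervals excluding 1, and receptors with known ligands. Members and lists were chosen with earlier results of these data known. Alternatives were other scalings, thresholds, pseudocounts of 1 and 5, minimum means, and subsets of members.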

Additional observations from a re-analysis of the deposited data

How the results depend on the processing

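The 30 family values and counts were recomputed 154 times under alternatives. No log2 ratio or difference of log2 ratios changed sign. Signal medians and counts could not, since they are never negative. Both other scalings could only raise the H3K27me3 ratios. In 126 cases the recomputed values moved by less than their interval or, for counts, by at most 1.5 times, and in 28 they moved further. Scaling the H3K27me3 libraries to the same total gave a +Dox median of 7.46, a summed log2 ratio of 0.38 and a median log2 ratio of 0.38, and centring low promoters on a median ratio of 1 gave a +Dox median of 6.87 and a summed log2 ratio of 0.26. With low promoters at a median ratio of 1, 1 cluster had an H3K27me3 interval below 0 and 1 subfamily an H3K4me3 interval above 0. With equal totals, 23 members had H3K27me3 intervals above 1 and 5 below 1, and 0 clusters had one below 0. With a threshold of 10 in place of 20, 56 members in −Dox and 85 in +Dox passed for H3K27me3 and 4 and 15 for H3K4me3. With 30, it was 2 and 1 for H3K27me3 and 0 and 0 for H3K4me3. With 5 added to each value, 18 H3K27me3 ratios were below 0.5 and 18 above 2, 0 H3K4me3 ratios were below 0.5 and 11 above 2, and the H3K4me3 median log2 ratio was 0.090. With a mean of at least 5, 39 H3K27me3 and 9 H3K4me3 ratios were below 0.5 and 35 H3K4me3 ratios above 2. With a fold of 1.5, 95 H3K27me3 and 87 H3K4me3 members were on the lower side. Counts of ratios past a fold thus depended on the treatment of low values. Shares of all promoters under these alternatives are not given here, so that the counts describe only how far the settings matter.

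No library was left out, since each group had 1. No paired analysis was possible because there was a single library for each mark in −Dox and in +Dox. The GC range of the comparison promoters, leaving out the chromosome 1 cluster, and the other scalings of member, cluster and subfamily calls were chosen after seeing the data. At about 5 reads a member, most single differences were within counting error.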
